A study of Homo sapiens with 6 samples.

Results

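The interferon-stimulated genes are genes whose transcription is known to rise when a cell meets interferon. Here 42 of them, named by symbol, were followed in ACHN cells, an established human kidney carcinoma line, of clear cell type by the submitters' account, with and without curcumol, a sesquiterpenoid of Curcuma rhizomes. All 42 symbols were found among the 58735 genes of the deposited count table, and 37 had enough counts to be tested, as did 15160 genes in all. There were 3 control and 3 curcumol libraries of poly(A)-selected RNA, all of the wild-type ACHN line with no other agent named, and described as independent biological replicates. Control cells received vehicle according to the labels and no drug according to the design text. Neither the curcumol dose nor its duration is given in the sources used here, and 1 cell line in culture limits what the groups stand for. The stated purpose of the series was glycolysis and malignant behaviour. Interferon was not among its treatments.

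Type I and type III interferons bind receptors that carry the kinases JAK1 and TYK2. These kinases phosphorylate STAT proteins such as STAT2, which joins IRF9 in the factor ISGF3. It binds interferon-stimulated response elements (ISRE) in promoters. Interferon gamma acts through JAK1 and JAK2 and through gamma-activated sites (GAS) in promoters. Many of these genes keep a basal level without added interferon, and some also respond directly to the IRF factors.

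Interferon-stimulated genes did not move as a block. Of the 37 tested, 34 reached the count filter in both groups and 3 (IFI27, IFI44L and IRF9) in 1 group alone. Of the 37, 16 rose, 13 fell and 8 did not pass (edgeR quasi-likelihood test, adjusted p under 0.05 over all genes tested). The share that passed, 78.4%, was close to the 79.7% of all tested genes that passed. Among members 43.2% rose and 35.1% fell, where 39.4% of all genes rose and 40.3% fell. The median log2 fold change was 0.21 for the tested members and -0.02 for all tested genes. Changes of at least 2-fold were seen for 7 members that rose and 4 that fell, where 21.3% and 23.1% of all tested genes did so. The 2 groups of libraries did not overlap for 30 of the 37, as for 81.0% of all tested genes. When the libraries were scaled by their total counts alone, 12 members rose and 16 fell.

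Summed over all 42 genes, the level was 1179, 1206 and 1201 CPM (counts scaled to a common library size with TMM factors) in control and 1181, 1238 and 1167 in curcumol. The groups overlapped, with means of 1195 ± 14.4 and 1195 ± 37.6 CPM (SD, n = 3). LGALS3BP carried a large part of this sum. Without it, the sum ran from 857 to 899.6 CPM in control and from 954 to 1038 CPM in curcumol, without overlap. With library totals the sum without LGALS3BP was no longer higher in curcumol. It ran from 939 to 991 CPM in control and from 858 to 949 in curcumol, with overlap. With LGALS3BP it ran from 1292 to 1323 CPM in control and from 1062 to 1133 in curcumol, lower without overlap.

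**Figure D1:**
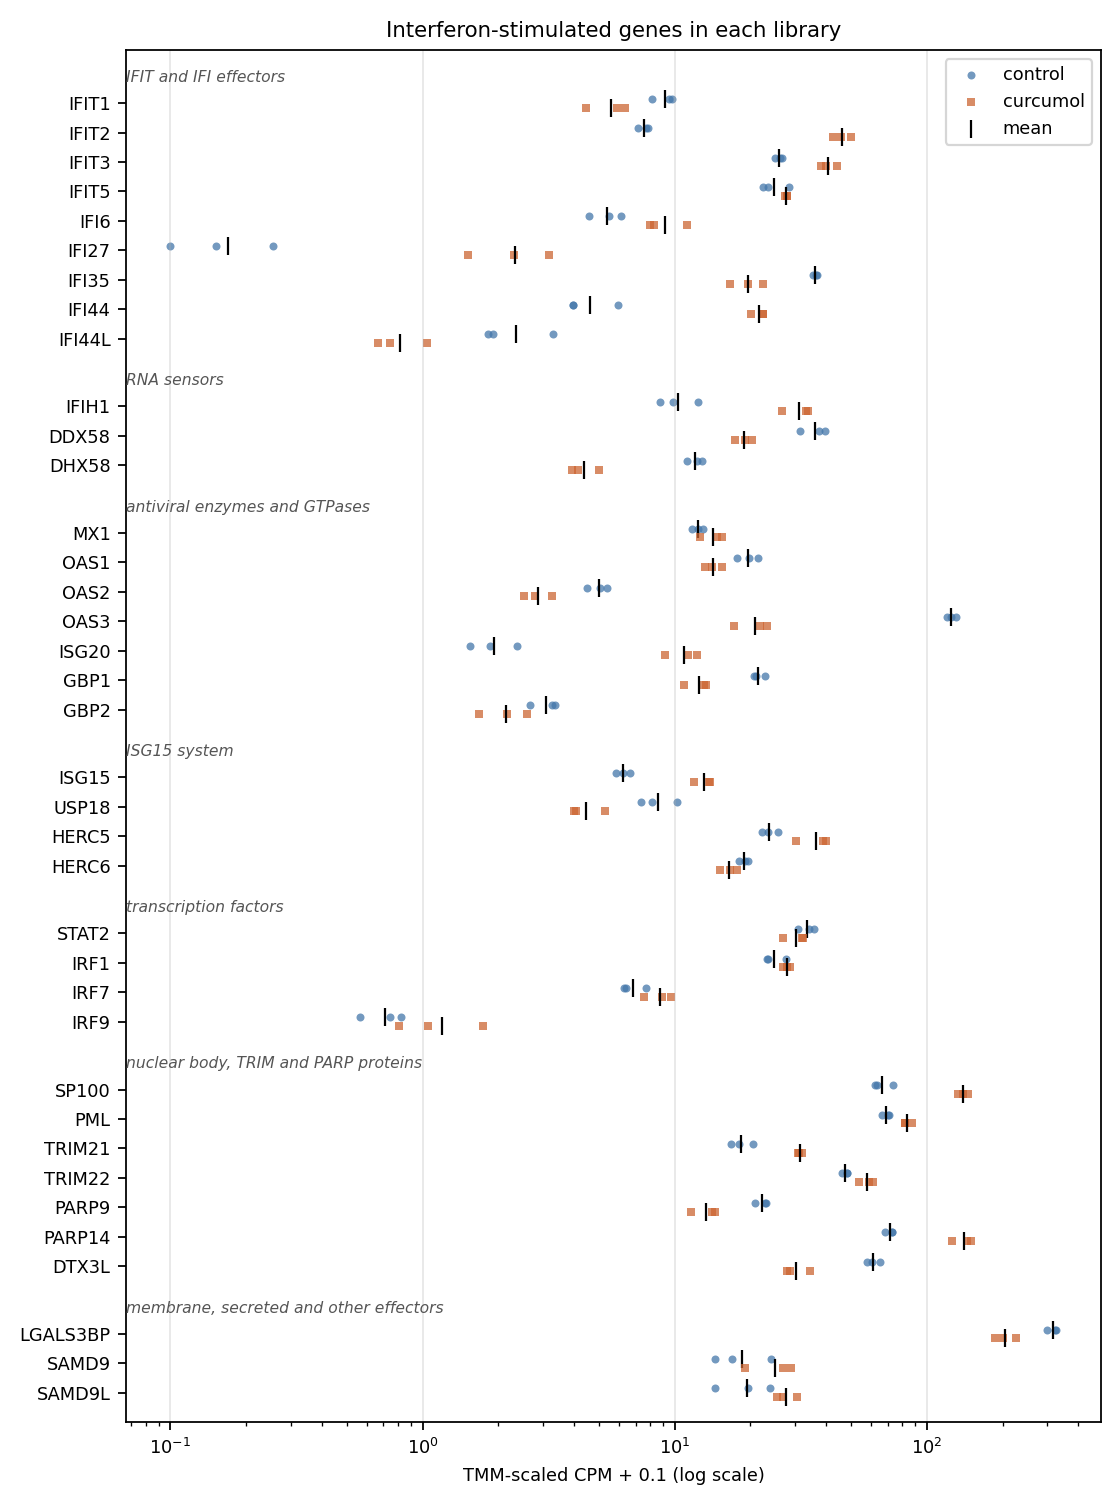
Level of the 37 tested interferon-stimulated genes in each library, as CPM + 0.1 on a log axis, with circles for control, squares for curcumol and a bar at each mean. IFIT2, IFI27, IFI44, IFIH1 and ISG20 stand to the right in all 3 curcumol libraries, OAS3 and DHX58 to the left, and the 4 transcription factors overlap between the groups.

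Depth and purity of the libraries bear on these values. Totals were 16962012 to 17827433 counts per library, so 3 counts, the limit that a count of 0 allows, correspond to 0.155 to 0.192 CPM. Intervals of this kind cover counting error only. The 7 renal epithelial markers summed to 3245 to 3483 CPM in control and 2087 to 2447 in curcumol. The 6 tested all fell, where 40.3% of all tested genes fell, and CDH6 had 0 counts in 5 of the 6 libraries. The summed level of 8 immune cell markers was 1.08 to 1.55 CPM in control and 4.93 to 6.28 in curcumol, with CD3E and CLEC4C at 0 counts in every library, PTPRC at 0 in control and 5 to 8 counts in curcumol, and CD14 at 0 to 3 and 67 to 77 counts. ITGAM, which made up most of the control sum, went the other way, from 20, 27 and 28 counts in control libraries to 5, 10 and 3 in curcumol libraries. The 6 fibroblast markers summed to 7.07 to 8.29 CPM in control, to 7.69 and 8.21 in curcumol replicates 1 and 3 and to 21.98 in curcumol replicate 2. COL1A2 had 70 counts in that library against 0 to 1 elsewhere, and COL3A1 had 0 counts in the control libraries and 23 to 58 in curcumol. COL1A1, which made up most of the control sum, was lower in curcumol, at 14, 66 and 27 counts against 100, 91 and 94. Endothelial markers summed to at most 1.14 CPM. The part of these markers in the results was not tested. Without curcumol replicate 2, 15 members rose and 13 fell. In a bulk sample, fewer expressing cells and less RNA per cell cannot be told apart.

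Promoter windows in RefSeq (GRCh38.p14, 250 bases before to 50 after an annotated start) were found for 32 of the 42 genes, DDX58 under its current symbol RIGI. The core letters of the ISRE, GAAA, any 2 bases and GAAA again on either strand, occurred in a window of 22 of these 32 genes (68.8%), against 3.57% of all 35116 windows of the same length. The letters were present for 10 of 12 members that rose, 7 of 10 that fell and 3 of 7 that did not pass. GAS-type letters, TTCNNNGAA, which read the same on both strands and can overlap an ISRE match, occurred for 8 of the 32 genes (25%), against 7.66% of all windows. They were present for 2 of 12 members that rose, 2 of 10 that fell and 3 of 7 that did not pass. The 32 genes had 41 windows, and a gene was counted if any of its windows matched. Shares of genes and shares of all windows are therefore not in the same unit. A match describes letters and is not evidence of a bound site.

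The windows below were chosen because they hold the core letters and belong to genes that moved in opposite directions. Of these genes 6 form pairs of neighbours that moved apart, and OAS3 and ISG20, which are unrelated, are shown for the size of their changes. They are written 5′ to 3′ along the gene, with ISRE-type matches in capitals. IFIT1 (chr10:89392373-89392672, plus strand) fell and IFIT3 (chr10:89327747-89328046, plus strand) rose. IFI44 (chr1:78649539-78649838, plus strand) rose and IFI44L (chr1:78620198-78620497, plus strand) fell. OAS3 (chr12:112938224-112938523, plus strand) had the largest fall among tested members and ISG20 (chr15:88638766-88639065, plus strand) one of the largest rises. DTX3L (chr3:122564088-122564387, plus strand) fell and PARP14 (chr3:122680589-122680888, plus strand) rose.
IFIT1: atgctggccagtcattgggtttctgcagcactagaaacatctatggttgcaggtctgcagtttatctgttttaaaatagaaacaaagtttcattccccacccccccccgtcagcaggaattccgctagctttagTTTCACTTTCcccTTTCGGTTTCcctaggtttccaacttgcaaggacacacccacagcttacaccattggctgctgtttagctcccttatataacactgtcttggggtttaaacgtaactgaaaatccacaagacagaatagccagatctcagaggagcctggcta
IFIT3: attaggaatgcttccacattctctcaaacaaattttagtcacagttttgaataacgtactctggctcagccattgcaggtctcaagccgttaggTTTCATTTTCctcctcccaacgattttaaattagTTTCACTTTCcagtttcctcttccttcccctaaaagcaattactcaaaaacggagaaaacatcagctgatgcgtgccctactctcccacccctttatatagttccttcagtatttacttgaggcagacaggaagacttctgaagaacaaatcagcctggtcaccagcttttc
IFI44: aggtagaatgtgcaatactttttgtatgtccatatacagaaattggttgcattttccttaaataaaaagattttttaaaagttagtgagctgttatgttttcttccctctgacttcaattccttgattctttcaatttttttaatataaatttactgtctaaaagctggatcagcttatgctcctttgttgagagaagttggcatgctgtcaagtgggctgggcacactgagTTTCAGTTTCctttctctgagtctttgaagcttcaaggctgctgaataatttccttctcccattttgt
IFI44L: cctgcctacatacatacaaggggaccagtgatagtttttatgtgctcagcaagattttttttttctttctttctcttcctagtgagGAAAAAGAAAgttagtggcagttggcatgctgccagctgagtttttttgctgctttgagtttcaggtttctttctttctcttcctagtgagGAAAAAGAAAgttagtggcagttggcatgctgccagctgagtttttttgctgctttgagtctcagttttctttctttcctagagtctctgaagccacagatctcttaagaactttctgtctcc
OAS3: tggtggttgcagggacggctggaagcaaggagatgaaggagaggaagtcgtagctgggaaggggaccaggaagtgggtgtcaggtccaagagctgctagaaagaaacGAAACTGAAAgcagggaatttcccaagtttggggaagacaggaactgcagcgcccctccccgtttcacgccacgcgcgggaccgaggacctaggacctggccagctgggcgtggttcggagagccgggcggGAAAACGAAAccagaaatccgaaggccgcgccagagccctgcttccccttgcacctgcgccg
ISG20: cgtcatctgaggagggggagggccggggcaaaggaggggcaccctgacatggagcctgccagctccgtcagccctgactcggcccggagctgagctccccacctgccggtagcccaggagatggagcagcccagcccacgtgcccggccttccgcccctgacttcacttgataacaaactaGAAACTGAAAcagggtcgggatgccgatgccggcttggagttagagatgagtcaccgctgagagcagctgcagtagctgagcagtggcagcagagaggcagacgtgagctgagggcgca
DTX3L: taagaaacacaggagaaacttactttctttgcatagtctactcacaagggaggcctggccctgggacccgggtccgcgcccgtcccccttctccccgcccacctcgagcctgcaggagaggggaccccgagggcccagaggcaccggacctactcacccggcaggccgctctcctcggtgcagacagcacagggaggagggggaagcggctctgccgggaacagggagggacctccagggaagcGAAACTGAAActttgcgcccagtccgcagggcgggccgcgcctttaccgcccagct
PARP14: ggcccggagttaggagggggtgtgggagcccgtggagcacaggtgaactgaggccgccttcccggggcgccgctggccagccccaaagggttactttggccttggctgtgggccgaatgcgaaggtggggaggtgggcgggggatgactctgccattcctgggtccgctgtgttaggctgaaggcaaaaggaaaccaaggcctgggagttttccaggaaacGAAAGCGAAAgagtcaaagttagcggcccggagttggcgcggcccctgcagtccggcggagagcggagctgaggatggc
IFIT1, IFIT3, IFI44L and OAS3 hold 2 matches each, and the other 4 windows hold 1. Counted from the annotated start as +1, the match nearest the right end begins at -103 in IFIT1, -122 in IFIT3, -18 in IFI44 and -73 in IFI44L. It begins at -12 in OAS3, -69 in ISG20, -6 in DTX3L and -29 in PARP14. IFIT3 and IFI44 each have a second annotated start in RefSeq, and in those windows the match nearest the right end begins at -51 and -60. PARP9, which runs the other way from DTX3L, has a window that shares 137 bases with that of DTX3L, and the match of DTX3L lies in the shared stretch.

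IFIT proteins bind foreign or uncapped RNA and block its translation. The 4 IFIT genes lie within 137 kb on chromosome 10 (89283694 to 89421001, GRCh38) and differed in direction. IFIT2 (ENSG00000119922) stood at 7.05, 7.64 and 7.74 CPM in control and 42.3, 45.7 and 49.9 CPM in curcumol. All curcumol libraries were far above the controls, and the 6.14-fold rise gave a log2 fold change of 2.62 ± 0.10 (SE, adjusted p in edgeR = 1.66e-15). IFIT3 (ENSG00000119917), a partner of IFIT1 and IFIT2 in protein complexes, stood at 26.0, 26.6 and 24.8 CPM in control and 39.7, 44.1 and 38.0 CPM in curcumol. It rose by 0.65 ± 0.09 on the log2 scale (SE, adjusted p in edgeR = 7.19e-07), without overlap.

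IFIT1 (ENSG00000185745), the cap sensor of the family, stood at 8.02, 9.39 and 9.70 CPM in control and 6.28, 4.33 and 5.81 CPM in curcumol. Every curcumol library was below every control library, with a log2 fold change of -0.72 ± 0.16 (SE, adjusted p in edgeR = 4.16e-04). IFIT5 ranged from 22.3 to 28.3 CPM in control and from 27.2 to 27.9 CPM in curcumol and did not pass (log2 fold change 0.17, edgeR adjusted p = 0.134), except without control replicate 3 (0.26). Without control replicate 1 it stood at 0.09. IFIT2 shares 65 exonic bases with LIPA on the opposite strand and 356 with the low-count AL353751.1 on its own. With an offset for GC content, IFIT1 stood at -1.17, IFIT3 at 0.35 and IFIT5 at -0.50 (edgeR adjusted p = 6.21e-06), so that the direction of IFIT5 depended on it. With library totals IFIT5 stood at -0.10.

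The IFI44 pair moved apart as well. IFI44 (ENSG00000137965) and IFI44L (ENSG00000137959) are paralogues side by side on chromosome 1 (78619922 to 78664078). IFI44 stood at 5.87, 3.87 and 3.87 CPM in control and 22.2, 22.2 and 20.02 CPM in curcumol. It rose 4.74-fold, a log2 fold change of 2.25 ± 0.15 (SE, adjusted p in edgeR = 7.58e-12). IFI44L had 32, 35 and 62 counts in the control libraries and 10, 15 and 9 in curcumol. IFI44L entered the test through the control group alone. Its low counts did not overlap between the groups and gave a log2 fold change of -1.64 ± 0.37 (SE, adjusted p in edgeR = 4.4e-04).

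Other IFI genes also split. IFI27 (ENSG00000165949), a small protein of mitochondria and endosomes, had 0, 3 and 1 counts in the control libraries and 22, 49 and 35 in curcumol. The curcumol libraries were all higher, with the highest count in replicate 2. IFI27 entered the test through the curcumol group alone, and its fitted log2 fold change of 4.87 ± 0.61 (SE, adjusted p in edgeR = 2.34e-07) depends on the prior count and was 4.33 to 6.06 across the alternatives.

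IFI6 (ENSG00000126709), which guards the endoplasmic reticulum against viral replication and limits apoptosis, stood at 4.47, 5.42 and 6.04 CPM in control and 11.1, 8.16 and 7.89 CPM in curcumol. It rose by 0.77 ± 0.17 (SE, adjusted p in edgeR = 3.71e-04), and by 1.16 with the GC offset. IFI35 (ENSG00000068079), a cytosolic partner of NMI, stood at 35.4, 36.6 and 36.3 CPM in control and 22.2, 19.4 and 16.5 CPM in curcumol. It fell without overlap (log2 fold change -0.90 ± 0.10, SE, edgeR adjusted p = 5.68e-08), and stood at -0.40 with the GC offset. Of the 9 IFIT and IFI genes, 5 rose, 3 fell and 1 did not pass. Of all tested genes 39.4% rose and 40.3% fell.

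**Figure D2:**
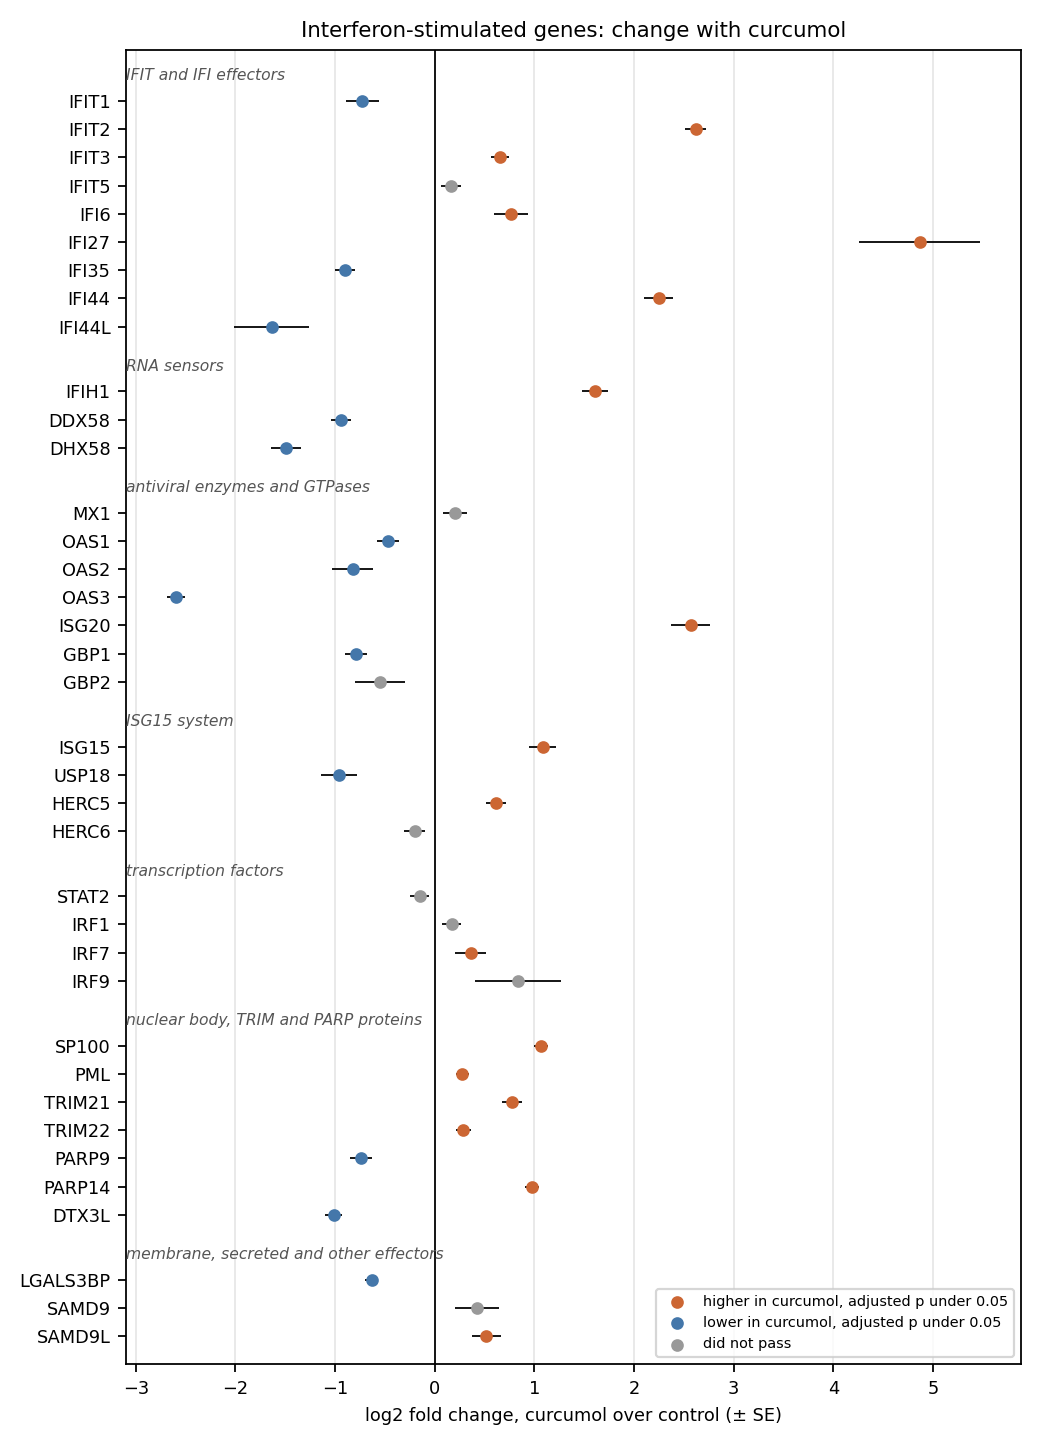
Log2 fold change of curcumol over control for the 37 tested genes, grouped by role, with bars of 1 SE. Orange points rose and blue points fell at an adjusted p under 0.05, and grey points did not pass. Changes ran from -2.60 for OAS3 to 4.87 for IFI27, which entered the test through the curcumol group alone. The largest rise among members that reached the count filter in both groups was 2.62, for IFIT2. In 6 of the 7 role groups, points that passed lay on both sides of 0.

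The RIG-I-like receptors sense viral RNA in the cytosol, and they too differed in direction. IFIH1 (ENSG00000115267), which encodes MDA5, the sensor of long RNA, stood at 9.74, 8.62 and 12.2 CPM in control and 26.6, 33.6 and 33.1 CPM in curcumol. It rose 3.05-fold, a log2 fold change of 1.61 ± 0.13 (SE, adjusted p in edgeR = 2.2e-10). DDX58 (ENSG00000107201), which encodes RIG-I, the sensor of RNA with a 5′ triphosphate, stood at 31.5, 37.1 and 39.3 CPM in control and 20.1, 19.0 and 17.2 CPM in curcumol. It fell without overlap, by a log2 change of -0.94 ± 0.10 (SE, adjusted p in edgeR = 3.03e-08). DDX58 was the more abundant of the pair in control, at 8.26 ± 0.926 CPM per kb of joined exons against 1.996 ± 0.363 for IFIH1 (SD, n = 3). In curcumol the order was the other way, at 4.31 ± 0.333 against 6.09 ± 0.769 CPM per kb.

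DHX58 (ENSG00000108771) encodes LGP2, which lacks the signalling domains and tunes the other sensors. It stood at 12.2, 12.7 and 11.1 CPM in control and 4.04, 3.83 and 4.93 CPM in curcumol. The groups were well apart, with a log2 fold change of -1.49 ± 0.15 (SE, adjusted p in edgeR = 1.1e-08). With the GC offset DDX58 stood at -1.48 and DHX58 at -0.98.

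Oligoadenylate synthetases bind double-stranded RNA and make an antiviral messenger from ATP. Their genes lie within 105 kb on chromosome 12 (112906777 to 113011723), and all 3 fell, under each scaling tried. Of all tested genes 40.3% fell. OAS3 (ENSG00000111331) stood at 120, 130 and 125 CPM in control and 21.7, 23.2 and 17.2 CPM in curcumol. The 6.05-fold fall was the largest among tested members, with a log2 fold change of -2.60 ± 0.09 (SE, adjusted p in edgeR = 2e-16). OAS1 (ENSG00000089127) went from 19.5 ± 1.87 to 14.1 ± 1.09 CPM (SD, n = 3) and OAS2 (ENSG00000111335) from 4.89 ± 0.454 to 2.76 ± 0.366 CPM. Neither overlapped, and their log2 fold changes were -0.47 ± 0.11 and -0.82 ± 0.20 (SE, adjusted p in edgeR = 6.91e-04 and 9.13e-04). The related OASL had 9, 8 and 2 counts in the control libraries and 10, 8 and 12 in curcumol and was too low to test.

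ISG20 (ENSG00000172183), an RNA exonuclease, had 42, 34 and 28 counts in the control libraries and 142, 178 and 192 in curcumol. It rose 5.93-fold without overlap, a log2 fold change of 2.57 ± 0.20 (SE, adjusted p in edgeR = 1.02e-10). The guanylate-binding proteins coat bacteria and vacuoles, and GBP1 (ENSG00000117228) fell from 21.4 ± 1.13 to 12.4 ± 1.35 CPM (SD, n = 3), and its log2 change was -0.79 ± 0.11 (SE, adjusted p in edgeR = 1.5e-06). GBP2 had 59, 50 and 63 counts in the control libraries and 39, 33 and 25 in curcumol and missed the threshold (log2 fold change -0.55, edgeR adjusted p = 0.0531). It passed with the GC offset (-0.91), with library totals (-0.82), without control replicate 2 (-0.65) and without curcumol replicate 1 (-0.71). GBP2 shares 621 exonic bases on its own strand with GBP7, which had 1 count in all libraries together.

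MX1 (ENSG00000157601), the dynamin-like GTPase that traps viral nucleocapsids, stood at 12.8, 12.2 and 11.7 CPM in control and 15.3, 14.6 and 12.6 CPM in curcumol. The groups overlapped, and its log2 fold change of 0.21 ± 0.12 did not pass (SE, adjusted p in edgeR = 0.116), but it did with the GC offset (0.38) and without curcumol replicate 3 (0.29). With library totals it stood at -0.06. MX2, on the same stretch of chromosome 21, had 0 counts in all 6 libraries. XAF1, a partner of XIAP, was likewise at 0 throughout. RSAD2, which encodes viperin, had 0, 0 and 3 counts in the control libraries and 4, 1 and 0 in curcumol. BST2, the tetherin gene, had 1, 0 and 1 and then 2, 5 and 0. For these 4 genes the depth does not allow a comparison.

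ISG15 is a ubiquitin-like protein that is joined to targets by ligases such as HERC5 and removed by USP18. ISG15 (ENSG00000187608) stood at 6.56, 6.14 and 5.73 CPM in control and 13.6, 13.7 and 11.8 CPM in curcumol. It rose 2.12-fold without overlap (log2 fold change 1.08 ± 0.14, SE, edgeR adjusted p = 2.73e-07), or by 1.84 on the log2 scale with the GC offset. USP18 (ENSG00000184979), which also restrains the type I receptor, stood at 7.26, 10.1 and 8.05 CPM in control and 5.19, 3.89 and 3.98 CPM in curcumol. It fell without overlap, by a log2 change of -0.96 ± 0.18 (SE, adjusted p in edgeR = 4.74e-05).

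HERC5 and HERC6 lie side by side on chromosome 4 (88378739 to 88506163). HERC5 (ENSG00000138646) stood at 22.1, 23.3 and 25.6 CPM in control and 30.2, 38.8 and 39.8 CPM in curcumol. It rose by 0.62 ± 0.11 on the log2 scale (SE, adjusted p in edgeR = 1.71e-05), but stood at 0.09 with the GC offset (edgeR adjusted p = 0.353). HERC6 stood at 17.97 to 19.5 CPM in control and 15.1 to 17.6 in curcumol. Its log2 fold change of -0.20 did not pass (edgeR adjusted p = 0.0882), except with library totals (-0.47) or the GC offset (-0.35).

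Of the 4 transcription factors among the members 1 passed, where 79.7% of all tested genes passed. All 4 overlapped between the groups, where 81.0% of all tested genes did not overlap. Which of them passed depended on the processing. With the GC offset IRF1, IRF7 and IRF9 passed as higher, and with library totals only STAT2 passed, as lower. STAT2 (ENSG00000170581), the ISGF3 subunit, stood at 30.9, 35.5 and 34.2 CPM in control and 26.7, 32.2 and 31.9 CPM in curcumol. Its log2 fold change was -0.15 ± 0.09 (SE, adjusted p in edgeR = 0.154), or -0.41 with library totals, where it passed (edgeR adjusted p = 5.95e-04). It stood at -0.02 with the GC offset and at -0.07 without curcumol replicate 1. IRF1 (ENSG00000125347), a factor that can drive many of these genes on its own, stood at 23.3, 27.6 and 23.1 CPM in control and 28.6, 26.8 and 27.8 CPM in curcumol. It did not pass at 0.17 ± 0.10 (SE, adjusted p in edgeR = 0.109), but did with the GC offset (0.49) and without control replicate 2 (0.26). Without control replicate 3 it stood at 0.11 and with library totals at -0.09. Exons of IRF1 share 1716 bases with C5orf56 on the opposite strand.

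IRF7 (ENSG00000185507), the factor that amplifies interferon alpha production, stood at 6.30, 7.64 and 6.19 CPM in control and 7.49, 9.61 and 8.78 CPM in curcumol. It passed at 0.36 ± 0.15 (SE, adjusted p in edgeR = 0.037), with 1 curcumol library below the highest control, and lost the call in 6 of 14 alternatives. These were library totals (0.10), no filter (0.31) and the fits without control replicate 1 (0.31), control replicate 3 (0.29), curcumol replicate 2 (0.28) or curcumol replicate 3 (0.36). With the GC offset IRF7 passed at 1.20 (edgeR adjusted p = 3.67e-08). IRF9, the DNA-binding subunit of ISGF3, had 12, 14 and 9 counts in the control libraries and 11, 26 and 15 in curcumol. It did not pass at 0.84 ± 0.43 (SE, adjusted p in edgeR = 0.0828), but passed without curcumol replicate 1 (1.07) and with the GC offset (1.24). Without curcumol replicate 2 it stood at 0.44 (edgeR adjusted p = 0.434). IRF9 too entered the test through the curcumol group alone. IRF9 shares 1838 exonic bases with AL136295.5 on its own strand, and how reads of such bases were assigned is not known.

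PML and SP100 build the PML nuclear bodies. SP100 (ENSG00000067066) stood at 62.5, 63.7 and 73.7 CPM in control and 133, 146 and 139 CPM in curcumol. It rose 2.09-fold without overlap (log2 fold change 1.07 ± 0.07, SE, edgeR adjusted p = 1.24e-11), or by 0.70 with the GC offset. PML (ENSG00000140464) stood at 69.0 ± 2.10 and 83.7 ± 3.07 CPM (SD, n = 3). Its rise of 0.28 ± 0.07 (SE, adjusted p in edgeR = 8.44e-04) was 0.01 with library totals (edgeR adjusted p = 0.879) and 0.93 with the GC offset.

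TRIM21 (ENSG00000132109), the cytosolic antibody receptor, stood at 20.4, 17.9 and 16.6 CPM in control and 31.0, 32.0 and 30.8 CPM in curcumol. It rose by 0.77 ± 0.10 on the log2 scale (SE, adjusted p in edgeR = 2.96e-07), without overlap. TRIM22 (ENSG00000132274), an antiviral ubiquitin ligase, stood at 47.5 ± 1.29 and 57.9 ± 3.76 CPM (SD, n = 3). Its rise of 0.29 ± 0.08 (SE, adjusted p in edgeR = 0.00186) was 0.02 with library totals (edgeR adjusted p = 0.811) and -0.02 with the GC offset (edgeR adjusted p = 0.842).

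PARP9, DTX3L and PARP14 are neighbours on chromosome 3 (122527924 to 122730840). PARP9 and DTX3L proteins form a complex that modifies histones and viral proteins, and PARP14 is a mono-ADP-ribosyltransferase. DTX3L (ENSG00000163840) stood at 65.0, 58.1 and 60.7 CPM in control and 28.6, 34.4 and 27.9 CPM in curcumol. PARP9 (ENSG00000138496) stood at 20.8, 22.7 and 23.0 CPM in control and 11.5, 14.3 and 13.9 CPM in curcumol. Both fell without overlap, with log2 fold changes of -1.01 ± 0.09 and -0.74 ± 0.11 (SE, adjusted p in edgeR = 8.67e-10 and 3.41e-06). They share 217 exonic bases on opposite strands, besides the promoter stretch described above.

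PARP14 (ENSG00000173193) stood at 72.9, 68.3 and 73.0 CPM in control and 127, 151 and 145 CPM in curcumol. It rose 1.97-fold without overlap (log2 fold change 0.98 ± 0.07, SE, edgeR adjusted p = 4.14e-11), and by 0.58 with the GC offset. Of the 7 nuclear body, TRIM and PARP genes, 5 rose and 2 fell, where 39.4% and 40.3% of all tested genes did. With library totals PML and TRIM22 no longer passed.

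LGALS3BP (ENSG00000108679), a secreted glycoprotein that binds galectins, was the most abundant member per exon length in both groups, at 88.4 ± 3.81 and 57.0 ± 5.75 CPM per kb (SD, n = 3). It stood at 322, 327 and 301 CPM in control and 227, 200.4 and 186 CPM in curcumol. It fell without overlap by a log2 change of -0.63 ± 0.07 (SE, adjusted p in edgeR = 1.66e-08). With the GC offset it stood at 0.06 (edgeR adjusted p = 0.334). Its GC content was 61.9%.

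SAMD9 and SAMD9L, paralogues on chromosome 7 (93099513 to 93148369) that restrain translation and growth, had wide spreads in control. SAMD9L (ENSG00000177409) stood at 19.5, 14.4 and 23.9 CPM in control and 25.5, 30.5 and 26.7 CPM in curcumol, a rise of 0.52 ± 0.14 (SE, adjusted p in edgeR = 0.00362). SAMD9 stood at 16.8, 14.4 and 24.1 CPM in control and 18.9, 28.8 and 26.8 CPM in curcumol and did not pass (log2 fold change 0.43, edgeR adjusted p = 0.108). It passed in limma-voom (0.44), without the filter (0.38), without control replicate 3 (0.66) and without curcumol replicate 1 (0.59). Without control replicate 2 it stood at 0.28 (edgeR adjusted p = 0.15), and with library totals at 0.16. With the GC offset SAMD9 stood at -0.30 (edgeR adjusted p = 0.0328) and SAMD9L at -0.09 (edgeR adjusted p = 0.462), and with library totals SAMD9L stood at 0.25 (edgeR adjusted p = 0.143).

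**Figure D3:**
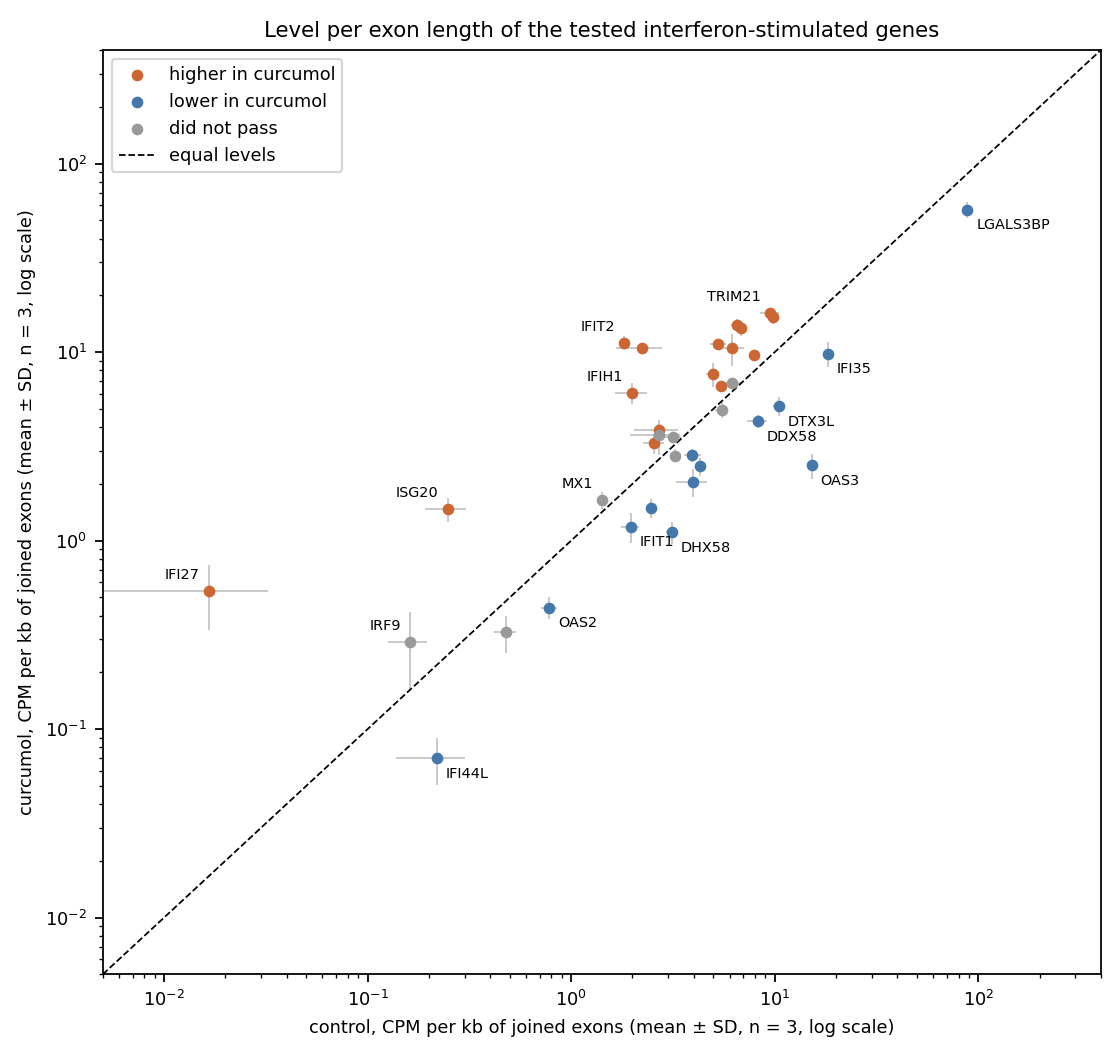
Mean level per kb of joined exons in control and in curcumol for the 37 tested genes, on log axes, with bars of 1 SD (n = 3) and a dashed line of equal levels. The lower bar of IFI27 in control is cut short because its SD exceeds its mean. OAS3 goes from 15.2 to 2.51 CPM per kb and IFIT2 from 1.82 to 11.2, and LGALS3BP is highest in both groups.

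The order of the members by level per exon length therefore differed between the groups. In control LGALS3BP was followed by IFI35 (18.3 ± 0.324 CPM per kb), OAS3 (15.2 ± 0.603), DTX3L (10.4 ± 0.596), IFIT3 (9.78 ± 0.338) and TRIM21 (9.48 ± 1.01). IFIT3 and TRIM21 lay within 1 SD of each other, and DTX3L and IFIT3 were less than the sum of their SDs apart. In curcumol it was followed by TRIM21 (16.2 ± 0.338), IFIT3 (15.4 ± 1.20), ISG15 (13.8 ± 1.12), PARP14 (13.4 ± 1.20) and IFIT2 (11.2 ± 0.929). Neighbours in that order after LGALS3BP lay within the sum of their SDs, except PARP14 and IFIT2. OAS3 moved from rank 3 to rank 25 of the 42, IFIT2 from 30 to 6, and IFI44 from 27 to 8.

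Genes that rose and genes that fell differed in GC content, for a reason that was not tested. Over all tested genes the median GC content was 45.3% for genes that rose and 53.2% for genes that fell. Among members it was 44.2% for the 16 that rose and 47.2% for the 13 that fell, with ranges of 38.7% to 67.0% and 37.0% to 61.9%. With the GC offset 16 members rose and 16 fell. Library totals lowered the log2 fold change of each member by 0.25 to 0.27, which moved some of the smaller changes by more than 1.5 times (IFIT3 to 0.39, IFI6 to 0.50, HERC5 to 0.35, TRIM21 to 0.51 and OAS1 to -0.74). Of the 37 tested, 23 kept both direction and call in every one of the 14 alternatives that tested them, among them IFIT2, IFI44, IFIH1, ISG20 and ISG15, which rose, and OAS3, DHX58 and DTX3L, which fell.

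**Figure D4:**
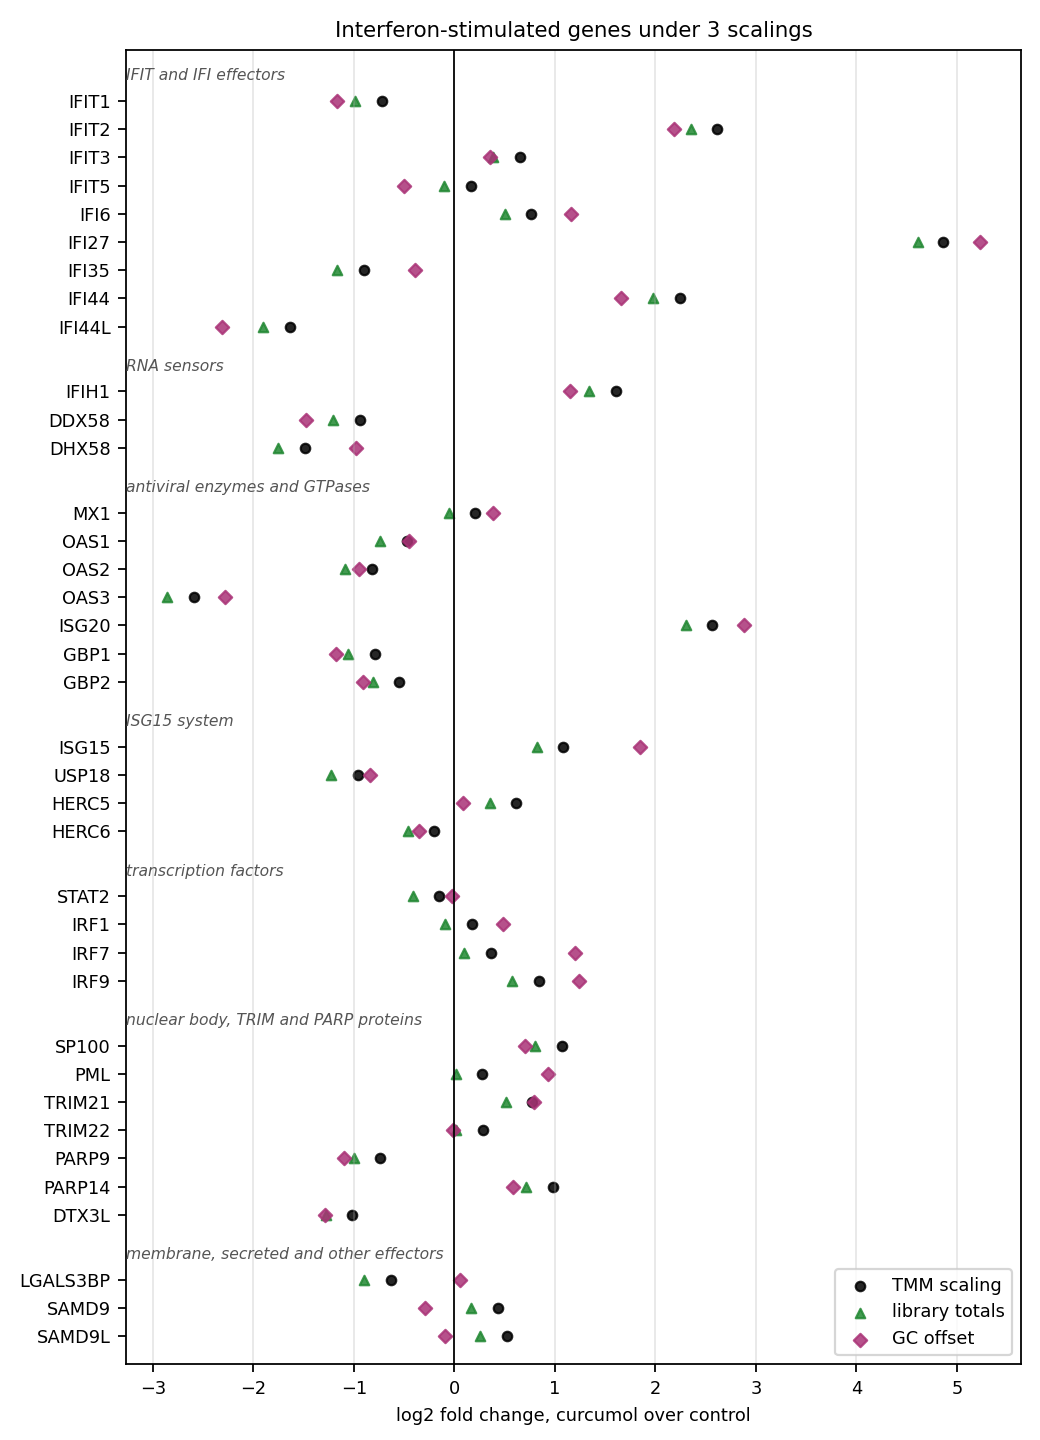
Log2 fold change of the 37 tested genes with TMM scaling (black circles), with library totals (green triangles) and with the GC offset (purple diamonds). Values with library totals lie to the left of the TMM values throughout. The GC offset moves genes either way, and IFIT5, TRIM22, LGALS3BP, SAMD9 and SAMD9L lie on opposite sides of 0 with and without it.

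The rest of the pathway was read from a list of 40 genes, of which 29 were tested, 10 rose, 16 fell and 3 did not pass (median log2 fold change -0.33). The share that passed was 89.7%, where 79.7% of all tested genes passed, and 34.5% rose and 55.2% fell, where 39.4% and 40.3% of all tested genes did. IFNAR2 and SOCS1 are in these counts but entered the test through the group where they are high. The list was chosen with earlier results of these data known, so its shares describe the list and test nothing about the pathway. No interferon mRNA was detected in any library for IFNA1, IFNB1, IFNE, IFNG, IFNL1, IFNL2 and IFNL3, all at 0 counts. IFNK had 0 counts in the control libraries and in curcumol replicate 1, and 2 in each of the others. A count of 0 allows levels up to the 3-count limit given above, which does not cover the counts of 2 for IFNK. The labels name no time of exposure.

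Receptor chains differed. IFNAR1 rose from 48.9 ± 1.86 to 75.5 ± 1.78 CPM (SD, n = 3), and its log2 change was 0.62 ± 0.07 (SE, adjusted p in edgeR = 5.75e-08), or 0.25 with the GC offset and 0.36 with library totals. IFNAR2, its partner chain, had 44, 44 and 36 counts in the control libraries and 6, 9 and 7 in curcumol. IFNAR2 entered the test through the control group alone. Its log2 change was -2.20 ± 0.38 (SE, adjusted p in edgeR = 1.77e-05), and it shares 2038 exonic bases with AP000295.1, which had 3 counts in all, on its own strand. IFNGR1, the ligand-binding chain for interferon gamma, rose from 20.5 ± 0.977 to 63.3 ± 2.63 CPM (SD, n = 3), by 1.62 on the log2 scale, or 1.07 with the GC offset. IFNGR2 (-0.31) and IFNLR1 (-0.59), the chains for interferon gamma and lambda signalling, fell, but neither passed with the GC offset (-0.12 and -0.13).

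Signalling kinases also differed in direction. JAK1 and TYK2 fell and JAK2 rose. JAK1 stood at 406 ± 15.0 and 229 ± 6.14 CPM (-0.83 on the log2 scale), and TYK2 at 51.1 ± 3.59 and 18.2 ± 0.418 CPM (-1.49, or -0.84 with the GC offset; SD, n = 3). STAT3, a transcription factor of cytokine signalling, fell, with a log2 change of -0.33 ± 0.06. JAK2, the kinase on the interferon gamma receptor, rose by 1.18 ± 0.12, or 0.63 with the GC offset (SE).

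Genes of nucleic acid sensing and interferon induction moved both ways. MAVS, the mitochondrial adaptor on which both RIG-I and MDA5 depend, stood at 156, 150.0 and 144 CPM in control and 21.97, 18.8 and 19.6 CPM in curcumol. Its 7.45-fold fall gave a log2 fold change of -2.90 ± 0.08 (SE, adjusted p in edgeR = 3.61e-18). The kinases that act after it moved apart. TBK1 rose from 55.0 ± 5.80 to 207 ± 21.2 CPM (log2 fold change 1.91), and IKBKE fell from 18.6 ± 0.853 to 3.36 ± 0.326 CPM (-2.47; SD, n = 3). TICAM1, the adaptor of TLR3, rose by 1.07, or 1.81 with the GC offset, and TLR3 itself did not pass (-0.22) except with the GC offset (-0.79), library totals (-0.48) or without control replicate 2 (-0.35), and stood at -0.14 without control replicate 3.

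Most of the other tested genes named here from that group fell, but not all, where 40.3% of all tested genes fell. IRF2 did not pass (0.08). The ubiquitin ligase gene TRAF3 changed by -0.89 and TRIM25, which activates RIG-I, by -0.75. IRF3, the factor that starts interferon transcription, stood at -0.43, but at 0.23 with the GC offset (edgeR adjusted p = 0.0109), and it shares 734 exonic bases with BCL2L12 on the opposite strand. EIF2AK2, the RNA-dependent kinase PKR, fell by 0.50 and ADAR, the RNA-editing adenosine deaminase, by 0.94, whereas the zinc-finger antiviral protein gene ZC3HAV1 rose by 0.96, all on the log2 scale. With the GC offset EIF2AK2 stood at -1.08. Of the genes too low to test, picked here after their values were seen, CGAS had 0, 1 and 0 counts in the control libraries and 8, 9 and 7 in curcumol, and STING1 at most 1 count in any library.

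Genes that restrain the pathway also split. SOCS3 rose from 36.8 ± 1.74 to 69.1 ± 3.15 CPM (SD, n = 3), and its log2 change was 0.91 ± 0.08 (SE, adjusted p in edgeR = 4.52e-10), or 1.60 with the GC offset. PIAS1 rose by 1.12 ± 0.11, and shares 2933 exonic bases with AC107871.1 on the opposite strand. SOCS1 was low, at 8, 8 and 6 counts in control libraries and 18, 13 and 15 in curcumol libraries, and entered the test through the curcumol group alone. Its log2 change was 1.32 ± 0.45 (SE), a call that was lost without curcumol replicate 1 (1.19, edgeR adjusted p = 0.0537). It stood at 2.16 with the GC offset. The phosphatase genes PTPN6 (-1.09 ± 0.12, or -0.46 with the GC offset) and PTPN11 (-0.37 ± 0.05, or -0.58) fell. PTPN2 did not pass (0.01), but fell with library totals (-0.26) and with the GC offset (-0.44).

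**Figure D5:**
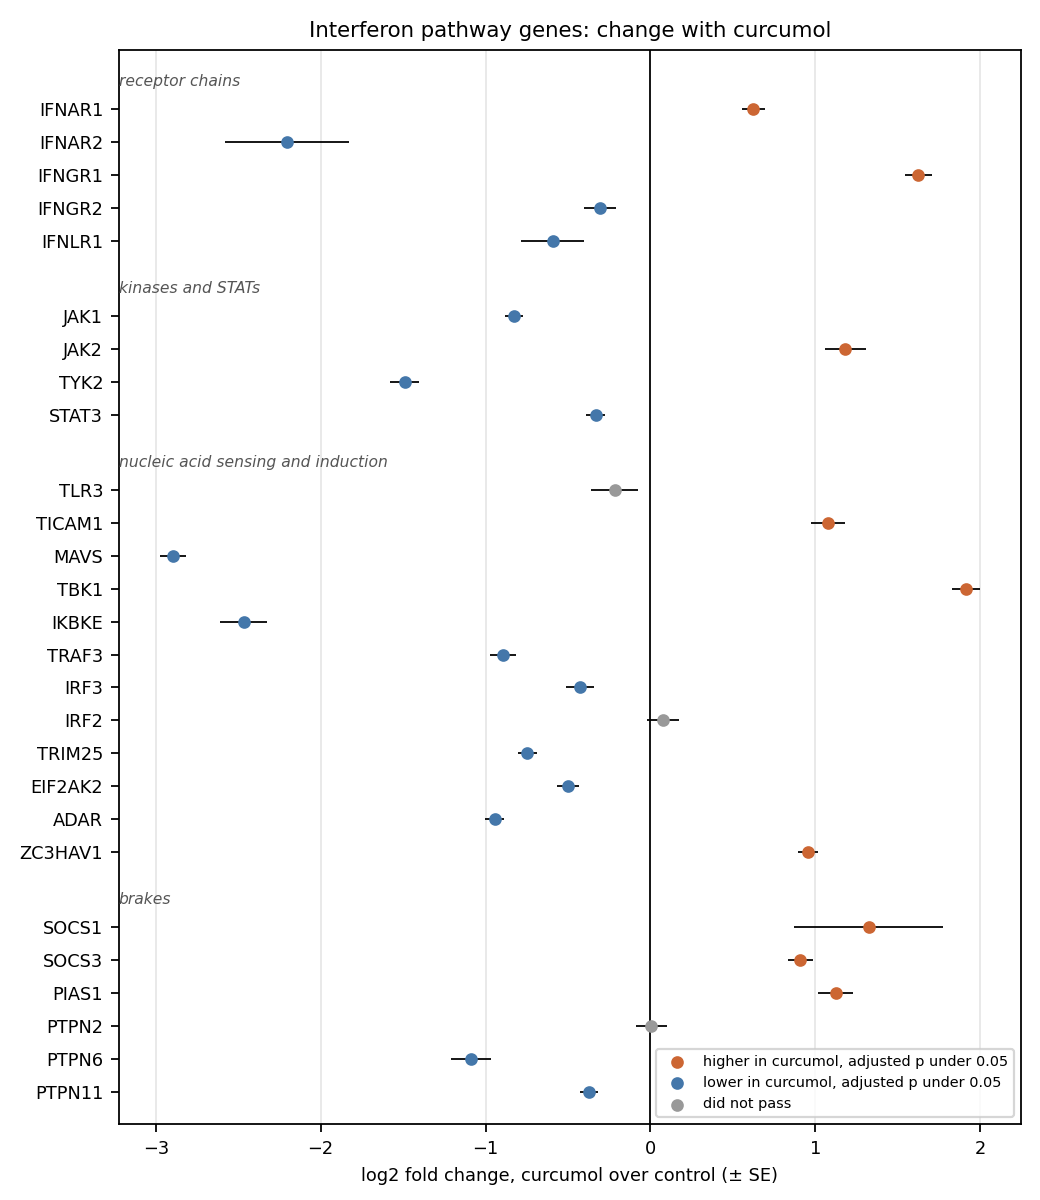
Log2 fold change of curcumol over control for tested genes of the wider interferon pathway, without those not reported here, grouped by role, with bars of 1 SE and the colours of calls as for the members. MAVS (-2.90), IKBKE (-2.47) and IFNAR2 (-2.20) lie farthest to the left, and TBK1 (1.91) and IFNGR1 (1.62) farthest to the right. Of these, IFNAR2 entered the test through the control group alone.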

How the data were processed

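Whole-number raw counts per gene and library were deposited by the authors in 1 table, from paired-end Illumina sequencing of poly(A)-selected RNA, per the labels' protocols. Per the submitters' processing notes the genome build was GRCh38 (hg38). Aligner, counter and use of strand: not given in the sources used here. All 58735 gene identifiers occur in GENCODE 29, which gave coordinates, joined exon lengths, exon overlaps and the GC content of transcripts.

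Genes kept by filterByExpr (15160) were scaled by TMM. The test was edgeR's quasi-likelihood F test (edgeR 4.0.16, R 4.3.3), with Benjamini-Hochberg adjustment over all genes kept and a call at 0.05. The SE of a log2 fold change is its size over the square root of F. The code was tested on simulated counts. P-values measure the spread between these libraries, which exceeded sampling noise within each group (chi-square of 3.48 to 8.00 for each degree of freedom).

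Alternatives were DESeq2 1.42.0, limma-voom (limma 3.58.1), DESeq2-type size factors, library totals, 2 filters (1 count in all; or 1 CPM on average with 50 counts), a replicate block, each library left out in turn, and a GC offset (spline with 5 degrees of freedom per library). The members and the pathway list were chosen with earlier results of these data known. The rule for named genes let all members, the interferons and each tested pathway gene be named, with markers and genes that share exons besides. Some genes of the pathway list are in its counts but are not reported here by name.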

Additional observations from a re-analysis of the deposited data

How the results depend on the processing

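Counts of members that rose and fell stayed within 1.5 times those reported under all 14 alternatives, at 12 to 18 and 12 to 16. Leaving out each library gave 15 to 18 that rose and 13 to 14 that fell. Of the 29 tested pathway genes, 23 kept their call throughout, and of these all but IRF2 kept direction too. IRF2 passed in no fit and stood at 0.08, at -0.19 with library totals and at -0.04 with the GC offset. Some directions turned with the GC offset: IFIT5 (-0.50), TRIM22 (-0.0161), LGALS3BP (0.0553), SAMD9 (-0.30), SAMD9L (-0.0901), IRF3 (0.23) and PTPN2 (-0.44). PTPN2 also turned with library totals (-0.26). So did IFIT5 (-0.10), MX1 (-0.06) and IRF1 (-0.09), which passed neither with TMM nor with library totals. The cause was not tested. The median over all tested genes was -0.02 with TMM and -0.28 with library totals. The direction of changes under about that size can therefore depend on the choice between them. Some larger changes depended on the processing too. SAMD9L (0.52) and IRF7 (0.36) lost their calls with library totals. With the GC offset HERC5 went from 0.62 to 0.09 and LGALS3BP from -0.63 to 0.0553.

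The replicate number does not mark a shared batch in the labels, and same-numbered libraries did not deviate together (correlations of 0.02, -0.01 and 0.08). With the number as a block, 17 members rose and 13 fell, and SAMD9 passed (0.44). Low counts limit IFI27, IFI44L, IRF9, GBP2, IFNAR2 and SOCS1, and 5 members could not be tested.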
